A study of Mus musculus with 9 samples.

Results

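The genes described here belong by name to families of splicing factors and proteins of the spliceosome, the nuclear machine that removes introns from pre-mRNA. Some members act elsewhere, as given below for several LSM genes. For brevity all the genes are called splicing genes here. They were chosen by name on a mouse Affymetrix expression array: the Srsf, Hnrnp, Snrp, Sf3a, Sf3b, Lsm and Gemin genes, with Smn1, each with a probe set that carries a single gene symbol. This gave 64 genes, measured by 171 probe sets, of 18193 genes named on the array. Of these, 10 encode SR proteins, 19 hnRNP proteins, 9 Sm and other snRNP proteins, 9 subunits of splicing factor 3 (SF3), 12 LSM proteins and 5 members of the SMN complex. Each gene was followed by its brightest probe set, the one with the highest mean over 9 arrays, and its second-brightest probe set served as a check in the 43 genes that have one. The values are log2 values that the authors deposited after normalization. The 7 genes Gemin4, Gemin6, Hnrnpa3, Lsm5, Snrpa, Snrpd1 and Snrpd2 fit the names but were met on the array only by probe sets that carry several symbols, and they are not analysed here, nor is Srsf7.

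All RNA came from preSC, cells labelled as preneoplastic neuroendocrine cells of the lung, the precursors of small cell lung cancer. The cells were derived from mice of mixed C57BL/6 and 129/Sv background carrying conditional alleles labelled Rb/p53/p130, which had been exposed to Adeno-Cre virus, so every group carries these changes. L-Myc cells (2 arrays), C-Myc cells (2 arrays) and N-Myc cells (2 arrays) are preSC transduced with a retrovirus for the named MYC protein, and the L-Myc cells are labelled as transformed. The comparison group is preSC without such a virus (3 arrays). No empty-virus group was analysed, so carrying a retrovirus and overexpressing a MYC protein cannot be told apart here. The design text calls the replicates biological, while no label says whether the arrays of a group came from separate lines or mice, and p-values measure the spread between these arrays.

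Splicing is carried out by small nuclear ribonucleoproteins (snRNPs), each built from a small nuclear RNA, a ring of Sm or LSM proteins and proteins of its own. The SMN complex, which contains Smn1 and the Gemin proteins, loads the Sm ring onto the RNA after the arginine methyltransferase Prmt5 has modified Sm proteins. SF3 subunits belong to the U2 snRNP, which recognises the branch point of an intron, while SR and hnRNP proteins bind pre-mRNA and steer which exons are kept. MYC proteins are transcription factors, and in mouse lymphoma MYC is known to drive snRNP assembly genes, Prmt5 among them.

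Promoter stretches of 3 genes from different complexes that rose in every comparison with preSC, namely Smn1, Lsm2 and Snrpb2, are shown first, as the sequence in front of the transcripts that the later values count. They are RefSeq sequences of build GRCm38.p6, written 5′ to 3′ on the strand of the gene and taken just before an annotated start. For Smn1, which encodes the central protein of the SMN complex, RefSeq annotates 2 starts on the plus strand, at the ends of chr13:100123105-100123204 and chr13:100124755-100124854. For Lsm2, of the ring that binds U6 RNA, the stretch chr17:34981754-34981853 lies before the first of 2 annotated starts on the plus strand. For Snrpb2, of the U2 snRNP, it is chr2:143062969-143063068 on the plus strand.
Smn1 first start: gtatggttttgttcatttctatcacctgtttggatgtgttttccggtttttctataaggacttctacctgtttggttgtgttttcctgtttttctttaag
Smn1 second start: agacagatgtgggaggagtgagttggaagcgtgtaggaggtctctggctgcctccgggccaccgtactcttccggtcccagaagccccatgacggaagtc
Lsm2: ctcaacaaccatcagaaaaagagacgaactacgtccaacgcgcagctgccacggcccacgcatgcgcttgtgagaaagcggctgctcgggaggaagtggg
Snrpb2: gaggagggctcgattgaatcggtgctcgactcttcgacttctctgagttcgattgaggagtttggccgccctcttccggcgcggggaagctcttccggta

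None of these stretches holds the E-box CACGTG, the DNA motif that MYC proteins bind with their partner MAX. The motif reads the same on both strands, and it was searched in windows from 250 bases before to 50 bases after each annotated start. Of the 56 splicing genes with such a window, 4 held it (7.14%), against 2187 of 27025 genes with a window (8.09%). All 4 encode hnRNP proteins, namely Hnrnpd, Hnrnpf, Hnrnph2 and Hnrnpm. The motif is shown in capitals for Hnrnpd, at chr5:99978939-99979000 on the minus strand, and for Hnrnpf, at chr6:117907695-117907760 on the plus strand. Hnrnpd had changes of -0.052, -0.088 and -0.082 on the log2 scale for L-Myc, C-Myc and N-Myc cells against preSC, and Hnrnpf had -0.033, 0.074 and 0.17, none of which passed the test described below. On the second-brightest probe sets Hnrnpd had -0.56 in L-Myc cells and fell by 0.89 in C-Myc (adjusted p = 0.0207) and by 0.93 in N-Myc cells (adjusted p = 0.0154), and Hnrnpf rose by 0.78, 1.03 and 1.22 (adjusted p = 0.0139, 0.00375 and 0.00165). Of the other two, Hnrnph2 had 0.51 in L-Myc and 0.41 in C-Myc cells and rose by 0.48 in N-Myc cells, and Hnrnpm had -0.063, 0.062 and 0.24, none past the test. A match is a description of these letters, and 8 of the splicing genes had no window to search.
Hnrnpd: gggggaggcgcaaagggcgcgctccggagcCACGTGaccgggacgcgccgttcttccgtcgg
Hnrnpf: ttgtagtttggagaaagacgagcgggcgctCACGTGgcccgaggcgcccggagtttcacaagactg

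The introduced genes were read first. Myc stood at 11.22 and 10.68 on the log2 scale in C-Myc cells and at 11.96 and 11.40 in N-Myc cells, against 5.63 and 7.29 in L-Myc cells and 6.50 to 8.13 in preSC. The brightest probe set of Mycl stood at 8.56 and 8.78 in L-Myc cells, inside or below the 8.65 to 9.03 of preSC, and did not follow the label, whereas its second-brightest stood at 11.79 and 12.74 in L-Myc cells and at 5.39 to 5.74 in preSC, with 8.52 in the second C-Myc array. The third probe set of Mycn stood at 9.05 and 8.46 in N-Myc cells and at 5.79 to 6.24 in L-Myc and C-Myc cells, against 6.05 to 6.39 in preSC. Its brightest probe set did not follow the labels and stood at 12.92 and 13.33 in L-Myc cells, 13.54 and 13.08 in C-Myc cells and 11.64 and 11.07 in N-Myc cells, against 6.37 to 6.89 in preSC, so the N-Myc arrays were the lowest of the transduced ones. Groups are named here by their labels. The 9 measured neuroendocrine markers of 10 listed lay above the filter on dim values in every array, with array means of 10.22 to 10.59 in transduced cells and 10.43 to 10.47 in preSC. Single markers moved both ways: 3 rose and 2 fell in L-Myc cells, and 3 rose and 5 fell in both C-Myc and N-Myc cells, with median changes of -0.58, -0.87 and -1.09 for L-Myc, C-Myc and N-Myc cells. Array means of fibroblast, endothelial, leukocyte and other lung epithelial markers lay between 4.84 and 6.59. Against preSC, 1 of 2 tested endothelial and 1 of 5 lung epithelial markers fell in each comparison. Endothelial changes went as low as -3.06 with L-Myc, -2.77 with C-Myc and -2.04 with N-Myc. With N-Myc, 1 of 2 leukocyte markers rose, and the highest lung epithelial change was 3.26, not past the test. None of 4 fibroblast markers passed. Of 6 lung epithelial markers, 4 stayed above the filter throughout the L-Myc and C-Myc arrays and 5 throughout the others.

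Some arrays stood apart from their labels. The second L-Myc array and the second C-Myc array correlated at 0.9965 over all probe sets, with 41 probe sets more than 2-fold apart, whereas the 2 C-Myc arrays differed by more than 2-fold at 3035 probe sets and the 2 L-Myc arrays at 2252. The first C-Myc array was in turn 194 and 182 such probe sets away from the N-Myc arrays. The third preSC array differed from the other two at 1909 and 1807 probe sets, against 47 between those. Results are therefore also given without the second L-Myc and second C-Myc arrays, an alternative chosen after seeing the data. The C-Myc and N-Myc samples are labelled total RNA and the L-Myc and preSC samples polyA RNA. This label therefore cannot be told apart from C-Myc or N-Myc against preSC, or from L-Myc against C-Myc or N-Myc. Probe sets for 18S ribosomal RNA averaged 8.22 to 9.35 in transduced arrays and 12.88 to 13.91 in preSC. The 5′ minus 3′ probe set difference, a sign of RNA or labelling quality, was -0.31 to -0.20 for Actb in transduced arrays and -0.85 to -0.62 in preSC. For the Dap spike-in it was -1.68 to -1.51 in transduced arrays and -3.66 to -3.40 in preSC. The part of these differences in the results below was not tested.

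Against preSC, the 3 largest rises of splicing genes in each comparison were those of Smn1, Lsm2 and Lsm12, and the largest falls were those of Sf3b2 in L-Myc cells and of Hnrnpul2 in C-Myc and in N-Myc cells. Dim genes were left out by a filter, the 40th percentile of each array, which 63 of the 64 splicing genes passed in 2 or more arrays. The exception was Srsf12, with log2 values of 3.42 to 4.52 over all arrays. Rose, fell and changed mean an adjusted p under 0.05 in a limma fit to all 9 arrays, two-sided and adjusted over 12976 genes. In L-Myc cells 9 of 63 splicing genes rose (14.3%) and 3 fell (4.76%), against 5.44% of all tested genes that rose and 8.03% that fell. In C-Myc cells 16 rose (25.4%) and 6 fell (9.52%), against 9.91% and 13.6% of all genes. In N-Myc cells 20 rose (31.7%) and 7 fell (11.1%), against 12.5% and 16.4% of all genes. The median change of the 63 genes was 0.18 in L-Myc, 0.17 in C-Myc and 0.23 in N-Myc cells, against -0.041, -0.052 and -0.030 over all tested genes in the same cells. The array medians of the tested genes differed by -0.14 (L-Myc), -0.17 (C-Myc) and -0.17 (N-Myc) from preSC. With arrays centred on these medians, 18 splicing genes rose and 1 fell in L-Myc cells, where 1144 of all genes rose and 702 fell. For C-Myc cells these counts were 22 and 5 of the splicing genes and 2064 and 1192 of all genes, and for N-Myc cells 24 and 5 of the splicing genes and 2662 and 1518 of all genes. The 3 comparisons share the preSC arrays, so their values stand side by side and are not independent of each other. In bulk RNA, fewer cells of a type and less RNA per cell cannot be told apart.

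**Figure D1:**
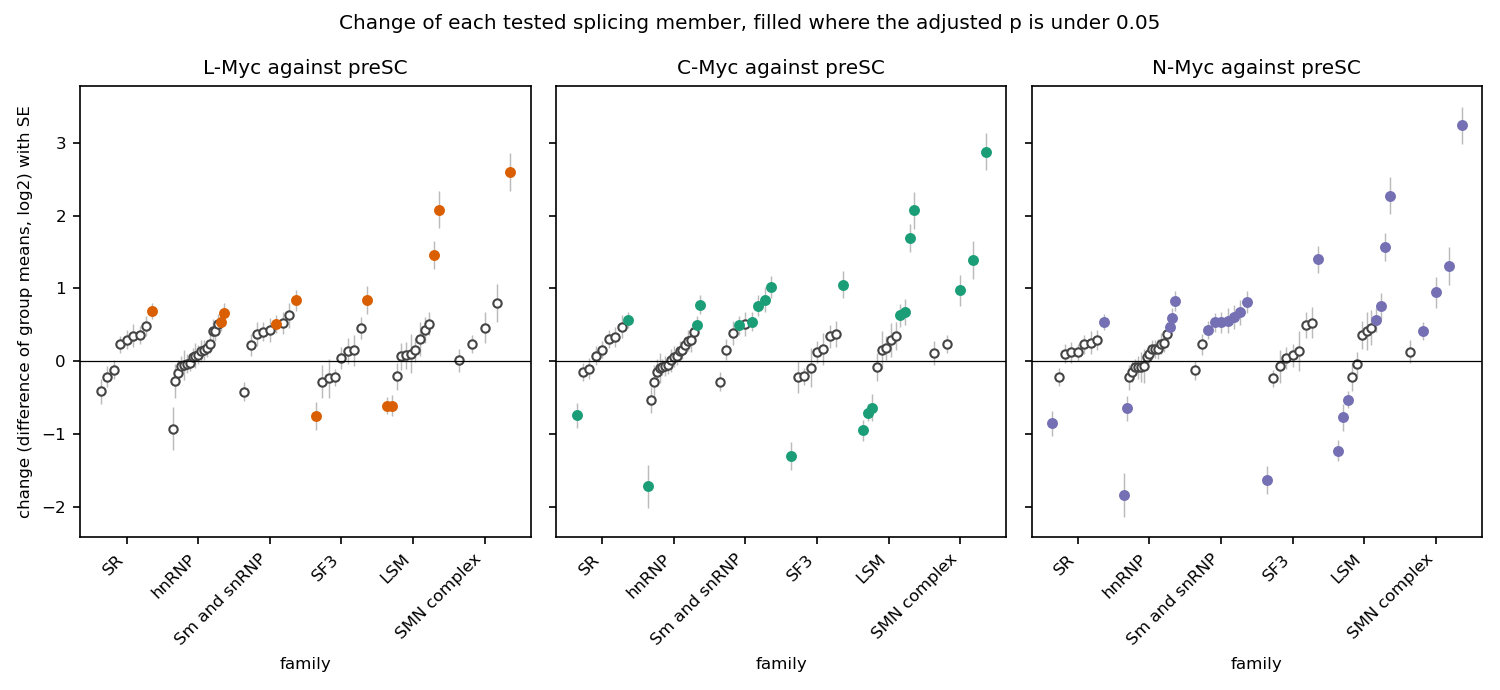
Change against preSC (difference of group means, log2, with the standard error of the fit) of the 63 tested splicing genes, by family and in order of change, for L-Myc, C-Myc and N-Myc cells. Filled points have an adjusted p under 0.05; no Sm, snRNP or SMN complex gene is filled below 0, and the highest point in each panel is Smn1.

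These counts moved with single arrays. In L-Myc cells, 3 rose and 0 fell without the second L-Myc array, and 6 and 1 without the first. In C-Myc cells, 7 rose and 4 fell without the first C-Myc array, against 16 and 6 without the second. In N-Myc cells, 4 rose and 2 fell without the first N-Myc array, and 5 and 2 without the second. Leaving out a preSC array gave 4 to 5 splicing genes that rose in L-Myc, 10 to 12 in C-Myc and 9 to 13 in N-Myc cells. Over all 12976 genes, 232 to 439 then rose in L-Myc, 570 to 1004 in C-Myc and 735 to 1175 in N-Myc cells. With all arrays these were 706, 1286 and 1617. Fits without any single transduced array leave 1 array in that group. Without an L-Myc array, an N-Myc array or the first C-Myc array, fewer of all genes, too, rose and fell. The drops in those fits are therefore not particular to the splicing genes. Without the second C-Myc array, more of all genes rose and fell than with all arrays, while the counts of splicing genes did not move. Calls that held whichever array was left out numbered 3 of 12 in L-Myc cells (Smn1, Lsm2 and Lsm12), 11 of 22 in C-Myc cells and 6 of 27 in N-Myc cells (Smn1, Lsm2, Lsm12, Lsm14b, Sf3b2 and Sf3b3). The 11 in C-Myc cells were Smn1, Lsm2, Lsm12, Snrpb2, Sf3b3, Srsf2 and Hnrnpa1, which rose, and Hnrnpul2, Sf3b2, Lsm14a and Lsm14b, which fell. Without both the second L-Myc and the second C-Myc array, 5 rose and 0 fell in L-Myc cells (4.06% and 6.87% of all genes), 16 rose and 6 fell in C-Myc cells (13.2% and 17.4% of all genes) and 21 rose and 7 fell in N-Myc cells (16.3% and 21.3% of all genes).

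**Figure D2:**
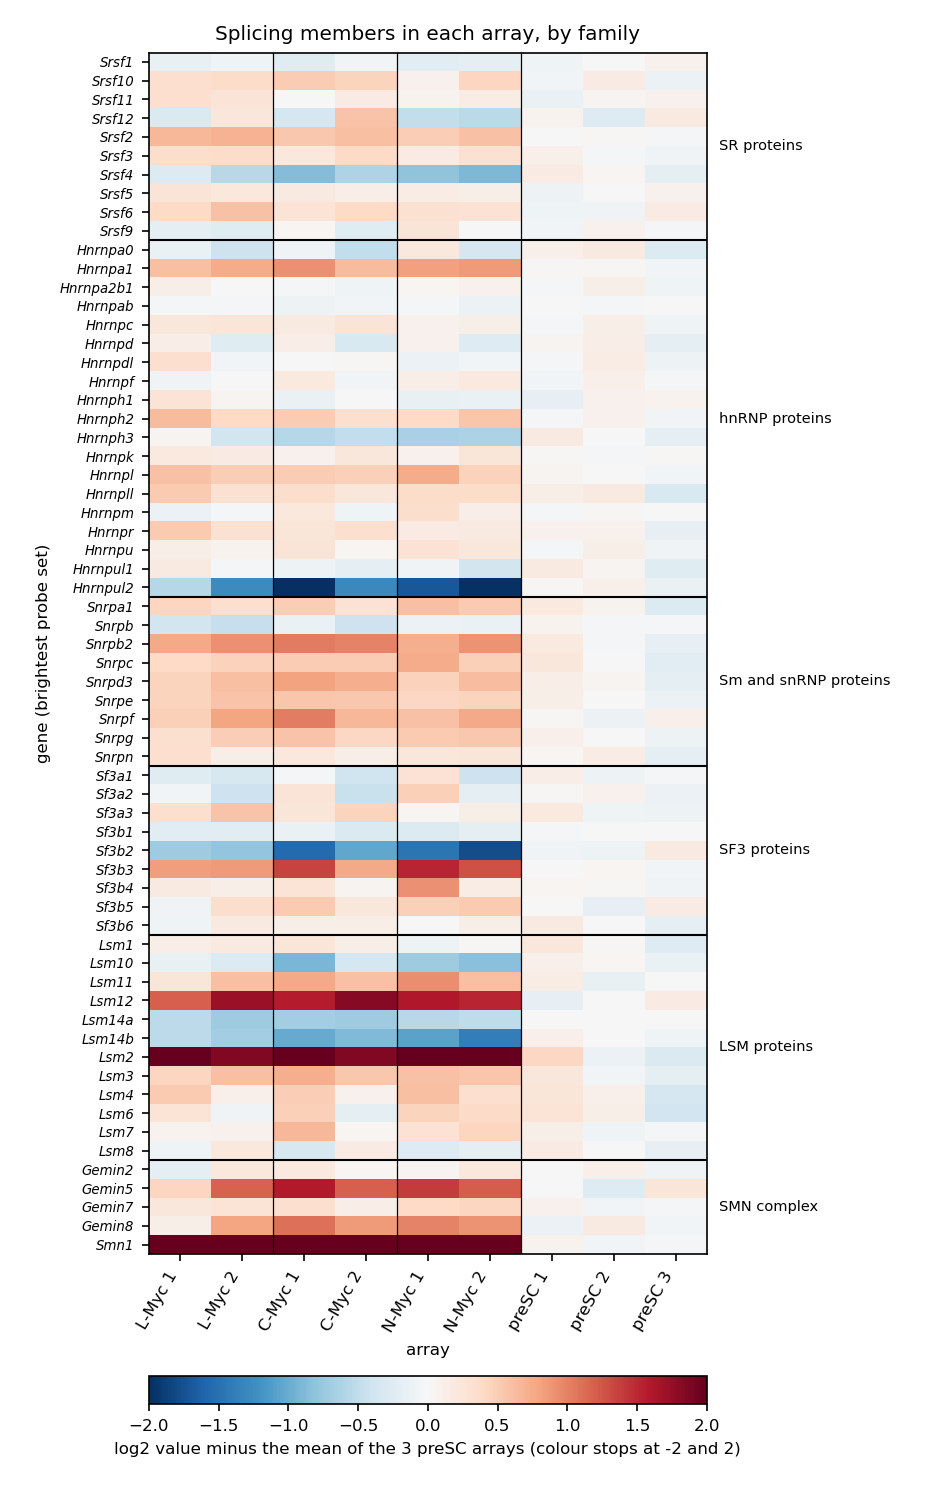
Each of the 64 splicing genes in each of the 9 arrays, as the log2 value minus the mean of the 3 preSC arrays, with families separated by lines and colour ending at -2 and 2. Smn1 and Lsm2 are dark red in the 6 transduced arrays, Hnrnpul2 and Sf3b2 are blue there, and most hnRNP rows are pale.

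Of the 5 SMN complex genes, 1 rose in L-Myc (Smn1), 3 in C-Myc and 4 in N-Myc cells, and none fell. The shares that rose were 20%, 60% and 80%, against 5.44%, 9.91% and 12.5% of all genes. Of all genes, 8.03%, 13.6% and 16.4% fell. The median change of the complex was 0.46 in L-Myc, 0.97 in C-Myc and 0.95 in N-Myc cells. Smn1, whose human counterpart is lost in spinal muscular atrophy, had log2 values of 9.36 and 9.57 in L-Myc cells, 10.22 and 9.27 in C-Myc cells and 10.15 and 10.05 in N-Myc cells, against 6.93, 6.81 and 6.85 in preSC. Every transduced array lay above every preSC array, by more than 2 log2 units. Smn1 rose 6.06-fold in L-Myc cells (log2 change 2.60, SE 0.26, adjusted p = 0.00377), 7.36-fold in C-Myc cells (adjusted p = 0.00209) and 9.45-fold in N-Myc cells (adjusted p = 0.00149). It has 1 probe set, so no second one bears on it.

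Gemin5, which recognises the small nuclear RNA for the complex, had 8.04 and 8.79 in L-Myc cells, 9.20 and 8.81 in C-Myc cells and 9.01 and 8.83 in N-Myc cells, against 7.63, 7.35 and 7.86 in preSC. The 2 L-Myc arrays were far apart, and the first lay close to the preSC arrays. Gemin5 rose by 1.39 in C-Myc cells (SE 0.26, adjusted p = 0.0118) and by 1.31 in N-Myc cells (adjusted p = 0.0124); its change of 0.80 in L-Myc cells had an adjusted p of 0.0867. On its second probe set the changes were -0.0027 (L-Myc), 0.43 (C-Myc) and 0.32 (N-Myc), none past the test. Gemin8, which ties other Gemin proteins to Smn1, had 7.54 and 8.22 in L-Myc cells, 8.52 and 8.27 in C-Myc cells and 8.41 and 8.32 in N-Myc cells, against 7.30, 7.59 and 7.36 in preSC. The first L-Myc array lay inside the preSC range, and the other 5 transduced arrays lay above it. Gemin8 rose by 0.97 in C-Myc (adjusted p = 0.0188) and 0.95 in N-Myc cells (adjusted p = 0.0183), and its second probe set by 0.46 and 0.50. Gemin7 rose by 0.42 in N-Myc cells (adjusted p = 0.0411), with 9.29 and 9.33 against 8.98, 8.83 and 8.87 in preSC. That call was lost whichever array was left out. Gemin2, which holds the Sm proteins before they close into a ring, had changes of 0.014, 0.11 and 0.13, none past the test.

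**Figure D3:**
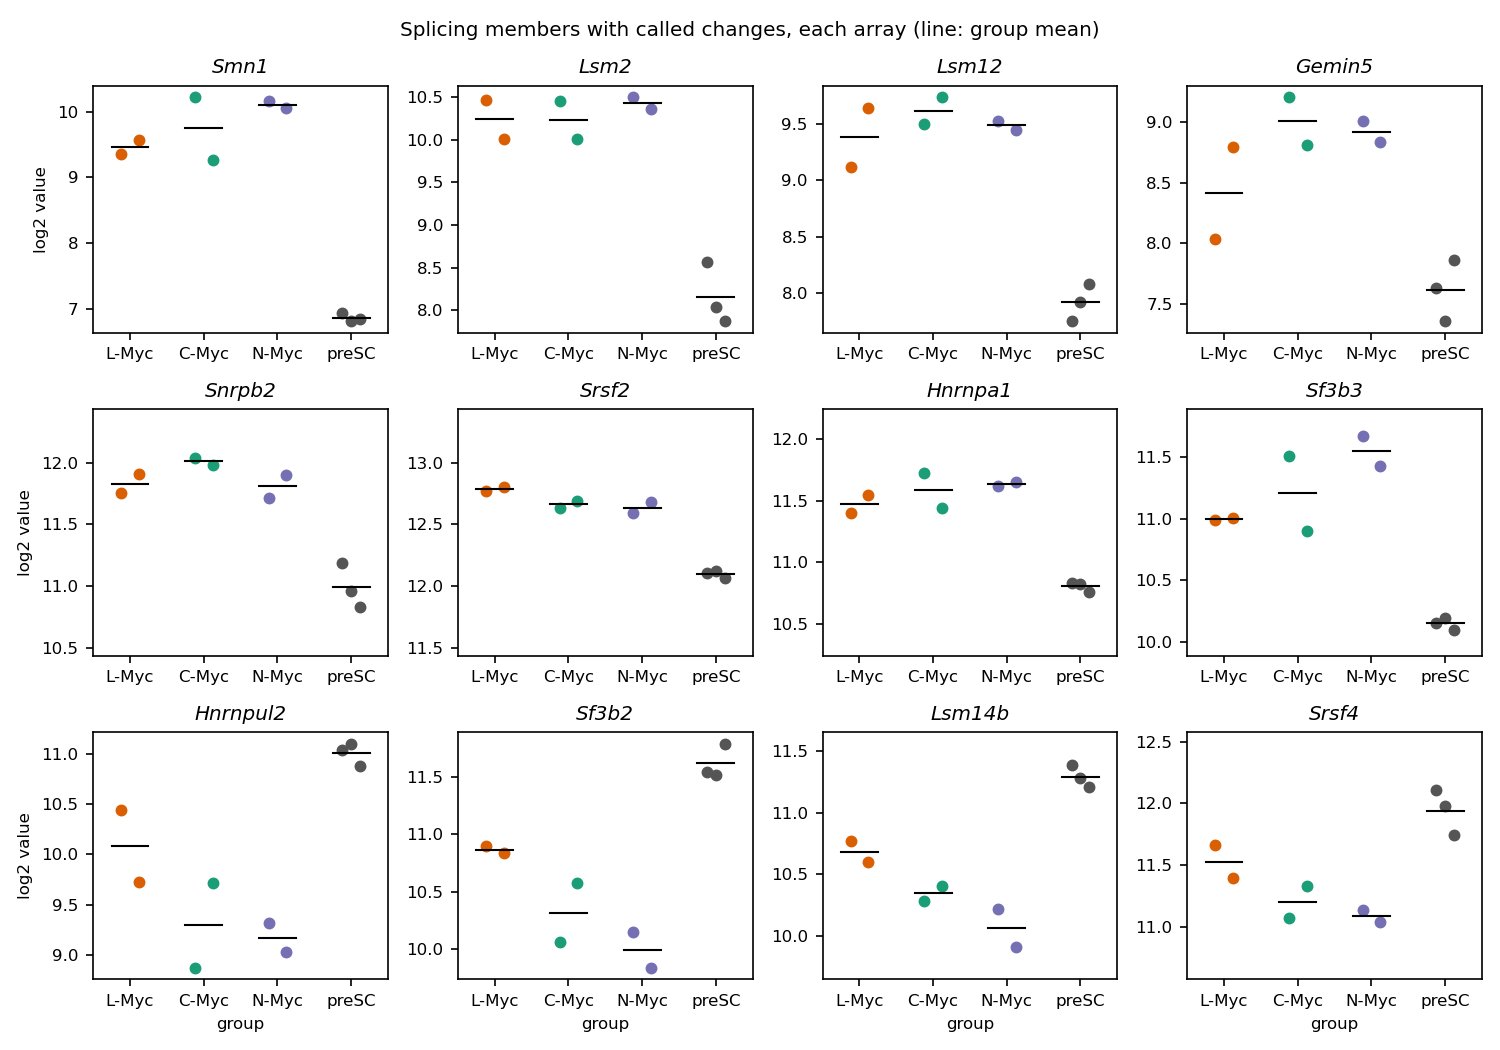
Log2 values of 12 splicing genes in each array (points), with the group mean as a line, for L-Myc, C-Myc, N-Myc and preSC; the vertical scale differs between genes and does not start at 0. Smn1, Lsm2, Lsm12, Snrpb2, Srsf2, Hnrnpa1, Sf3b3 and Gemin5 are higher in every transduced array than in every preSC array, and Hnrnpul2, Sf3b2, Lsm14b and Srsf4 are lower; the changes of Gemin5, Hnrnpul2 and Srsf4 in L-Myc cells did not pass the test.

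Among the 9 Sm and snRNP genes, 2 rose in L-Myc, 5 in C-Myc and 7 in N-Myc cells, and none fell. The shares that rose were 22.2%, 55.6% and 77.8%, against 5.44%, 9.91% and 12.5% of all genes. Of all genes, 8.03%, 13.6% and 16.4% fell. The median change was 0.43 in L-Myc, 0.51 in C-Myc and 0.54 in N-Myc cells. Snrpb2, the U2-B″ protein that binds U2 RNA, had 11.75 and 11.91 in L-Myc cells, 12.04 and 11.98 in C-Myc cells and 11.72 and 11.90 in N-Myc cells, against 11.19, 10.96 and 10.83 in preSC. The groups did not overlap. Snrpb2 rose by 0.84 in L-Myc (SE 0.15, adjusted p = 0.0147), 1.02 in C-Myc (adjusted p = 0.00563) and 0.81 in N-Myc cells (adjusted p = 0.00955), and its second probe set by 0.82, 1.03 and 0.84. The call in L-Myc cells was lost without the second L-Myc array and without the second preSC array.

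Of the genes of the Sm ring itself, Snrpd3, Snrpe, Snrpf and Snrpg rose in C-Myc and N-Myc cells and Snrpe also in L-Myc cells, while Snrpb and its relative Snrpn did not pass the test. Snrpf had 11.50 and 11.82 in L-Myc cells, 12.06 and 11.69 in C-Myc cells and 11.62 and 11.79 in N-Myc cells, against 11.05, 10.91 and 11.14 in preSC, and it rose by 0.85 in C-Myc (adjusted p = 0.0146) and 0.67 in N-Myc cells (adjusted p = 0.026). Its change of 0.63 in L-Myc cells missed the threshold (adjusted p = 0.0515), although both arrays lay above every preSC array. Snrpd3 had 12.27 and 12.42 in L-Myc cells, 12.62 and 12.55 in C-Myc cells and 12.27 and 12.44 in N-Myc cells, against 11.95, 11.88 and 11.63 in preSC. Snrpd3 rose by 0.77 in C-Myc (adjusted p = 0.0119) and 0.54 in N-Myc cells (adjusted p = 0.031), with 0.53 in L-Myc cells (adjusted p = 0.0535), and its second probe set rose by 1.23 in L-Myc, 0.94 in C-Myc and 0.57 in N-Myc cells. Snrpe, the other Sm gene called in L-Myc cells, had 13.02 and 13.16 in L-Myc cells, 13.14 and 13.12 in C-Myc cells and 13.00 and 13.03 in N-Myc cells, against 12.70, 12.57 and 12.46 in preSC. Snrpe rose by 0.51 in L-Myc (adjusted p = 0.0388), 0.55 in C-Myc (adjusted p = 0.0217) and 0.43 in N-Myc cells (adjusted p = 0.039). The preSC arrays lay below the transduced arrays in all of these genes. The L-Myc and N-Myc calls of Snrpe and the N-Myc call of Snrpd3 were each lost whichever array was left out. Snrpg, of the same ring, rose by 0.50 in C-Myc (adjusted p = 0.0333) and 0.53 in N-Myc cells (adjusted p = 0.0227), with 0.41 in L-Myc cells, and its second probe set rose by 0.57, 0.81 and 0.75.

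Of the snRNP proteins outside the ring, 2 more were called in N-Myc cells and in neither of the other comparisons with preSC. Snrpc, of the U1 snRNP, rose by 0.61 (adjusted p = 0.0309), and Snrpa1, the U2-A′ partner of Snrpb2, by 0.56 (adjusted p = 0.0433). Their changes were 0.43 and 0.38 in L-Myc and 0.51 and 0.39 in C-Myc cells, and the second probe set of Snrpa1 gave -0.081, 0.0075 and 0.084 for L-Myc, C-Myc and N-Myc cells. Whether these changes differ between N-Myc and the other transduced cells is tested below. Snrpb, the gene of the SmB ring protein, had 11.92 and 11.83 in L-Myc cells, 12.15 and 11.87 in C-Myc cells and 12.18 and 12.16 in N-Myc cells, against 12.36, 12.25 and 12.25 in preSC. All transduced arrays lay below the preSC arrays, but its changes of -0.41, -0.28 and -0.12 did not pass the test. On its second probe set the changes were -0.0605, 0.014 and 0.14, none past the test. Snrpn, a tissue-restricted relative of Snrpb from an imprinted locus, had changes of 0.23, 0.16 and 0.23, none past the test.

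The LSM genes split. Of 12, 2 rose and 2 fell in L-Myc cells, and 4 rose and 3 fell in both C-Myc and N-Myc cells. The shares that rose were 16.7%, 33.3% and 33.3%, against 5.44%, 9.91% and 12.5% of all genes. Those that fell were 16.7%, 25% and 25%, against 8.03%, 13.6% and 16.4% of all genes. The median change was 0.13 in L-Myc, 0.24 in C-Myc and 0.39 in N-Myc cells. Lsm2, shared by the nuclear ring on U6 RNA and the cytoplasmic ring that acts in mRNA decay, had 10.47 and 10.01 in L-Myc cells, 10.45 and 10.01 in C-Myc cells and 10.50 and 10.36 in N-Myc cells, against 8.57, 8.03 and 7.87 in preSC. The groups were more than 1 log2 unit apart. Lsm2 rose 4.24-fold in L-Myc (log2 change 2.08, SE 0.26, adjusted p = 0.006), 4.21-fold in C-Myc (adjusted p = 0.00367) and 4.84-fold in N-Myc cells (adjusted p = 0.00271), on its 1 probe set.

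Lsm12, an LSM-domain protein outside these rings, had 9.12 and 9.64 in L-Myc cells, 9.49 and 9.73 in C-Myc cells and 9.52 and 9.45 in N-Myc cells, against 7.75, 7.92 and 8.08 in preSC. All transduced arrays lay at least 1 log2 unit above the preSC arrays. Lsm12 rose by 1.46 in L-Myc (SE 0.19, adjusted p = 0.00659), 1.70 in C-Myc (adjusted p = 0.00325) and 1.57 in N-Myc cells (adjusted p = 0.00344), and its second probe set by 1.58, 1.83 and 1.67. Lsm3, of both rings, rose by 0.63 in C-Myc (adjusted p = 0.0283) and 0.57 in N-Myc cells (adjusted p = 0.0345), with 0.51 in L-Myc cells. On their brightest probe sets the other ring genes did not pass the test: Lsm1, Lsm4, Lsm6, Lsm7 and Lsm8 had changes between -0.22 and 0.46 over the comparisons with preSC, Lsm7 among them with 0.082, 0.35 and 0.36 for L-Myc, C-Myc and N-Myc cells. The second probe set of Lsm6 rose by 0.63 in C-Myc (adjusted p = 0.0463) and 0.66 in N-Myc cells (adjusted p = 0.0351), with 0.54 in L-Myc cells.

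Lsm11 and Lsm10, which replace ordinary ring members in the U7 snRNP that processes histone mRNA, were called in opposite directions. Lsm11 had 6.41 and 6.77 in L-Myc cells, 6.93 and 6.76 in C-Myc cells and 7.10 and 6.77 in N-Myc cells, against 6.32, 6.01 and 6.17 in preSC, and it rose by 0.68 in C-Myc (adjusted p = 0.0329) and 0.77 in N-Myc cells (adjusted p = 0.0197). The other probe set tested gave -0.07 (L-Myc), 0.21 (C-Myc) and 0.20 (N-Myc), none past the test. Lsm10 had 8.98 and 8.86 in L-Myc cells, 8.21 and 8.77 in C-Myc cells and 8.42 and 8.30 in N-Myc cells, against 9.23, 9.16 and 9.0 in preSC, and it fell by 0.63 in C-Myc (adjusted p = 0.045) and by 0.77 in N-Myc cells (adjusted p = 0.0215). The changes in L-Myc cells, 0.43 for Lsm11 and -0.21 for Lsm10, did not pass the test. No transduced array reached the preSC range of either gene. The C-Myc calls of both genes were lost without the first C-Myc array and without any of the preSC arrays.

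Lsm14a and Lsm14b, proteins of cytoplasmic P-bodies that hold mRNA from translation, were the LSM genes that fell in L-Myc cells. Lsm14b had 10.77 and 10.60 in L-Myc cells, 10.29 and 10.41 in C-Myc cells and 10.22 and 9.91 in N-Myc cells, against 11.39, 11.28 and 11.21 in preSC. The preSC arrays lay above all others. Lsm14b fell by 0.61 in L-Myc (SE 0.14, adjusted p = 0.035), by 0.94 in C-Myc (adjusted p = 0.00643) and by 1.23 in N-Myc cells (adjusted p = 0.0032). Lsm14a had 10.96 and 10.78 in L-Myc cells, 10.78 and 10.76 in C-Myc cells and 10.93 and 10.98 in N-Myc cells, against 11.47, 11.48 and 11.49 in preSC, and the groups did not overlap. Lsm14a fell by 0.61 in L-Myc (adjusted p = 0.018), by 0.71 in C-Myc (adjusted p = 0.00809) and by 0.53 in N-Myc cells (adjusted p = 0.017). Its second probe set fell by 0.70, by 0.71 and by 0.65, also past the test. The third probe set of Lsm14a, about as bright as the second, gave -0.19, -0.0028 and 0.028 and was not tested. In L-Myc cells the Lsm14a call was lost without the second L-Myc, first preSC or second preSC array, and the Lsm14b call whichever array was left out.

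In the SF3 group 1 of 9 genes rose and 1 fell in each comparison with preSC, and they were Sf3b3 and Sf3b2 each time, a share of 11.1% each way that lies near that of all genes in C-Myc and N-Myc cells. Both calls in L-Myc cells were lost whichever array was left out. The median change was 0.044 in L-Myc, 0.13 in C-Myc and 0.081 in N-Myc cells. Sf3b3, a scaffold subunit of SF3b, had 10.99 and 11.00 in L-Myc cells, 11.51 and 10.90 in C-Myc cells and 11.67 and 11.43 in N-Myc cells, against 10.16, 10.20 and 10.10 in preSC. The groups did not overlap. Sf3b3 rose by 0.84 in L-Myc (SE 0.19, adjusted p = 0.0295), 1.05 in C-Myc (adjusted p = 0.0102) and 1.40 in N-Myc cells (adjusted p = 0.00433). Its second probe set gave 0.29 in L-Myc cells, not past the test, and rose by 0.64 in C-Myc and 0.75 in N-Myc cells.

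Sf3b2, which contacts the intron near the branch point, had 10.90 and 10.83 in L-Myc cells, 10.06 and 10.57 in C-Myc cells and 10.15 and 9.84 in N-Myc cells, against 11.54, 11.51 and 11.79 in preSC. All transduced arrays lay below the preSC arrays. Sf3b2 fell by 0.75 in L-Myc (SE 0.19, adjusted p = 0.0433), by 1.30 in C-Myc (adjusted p = 0.00582) and by 1.62 in N-Myc cells (adjusted p = 0.00322). Its probe sets disagreed: the changes of its 7 probe sets ran from -0.75 to 1.40 in L-Myc, from -1.30 to 0.87 in C-Myc and from -1.62 to 0.67 in N-Myc cells, and their mean gave 0.19 in L-Myc cells. Sf3b1, the subunit most often mutated in human cancers, had changes of -0.22, -0.21 and -0.23 for L-Myc, C-Myc and N-Myc cells. None passed the test, and on this brightest probe set every transduced array lay below the preSC arrays. The second probe set of Sf3b1 went the other way, with 0.29, 0.24 and 0.18, none past the test. Sf3a3 had 0.45, 0.34 and 0.081 on its brightest probe set, none past the test.

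Of the 9 SR genes tested, Srsf2 rose in each comparison with preSC and Srsf4 fell in C-Myc and N-Myc cells. The other 7 did not pass the test in any. The share that rose was 11.1% in each comparison, against 5.44%, 9.91% and 12.5% of all genes. The shares that fell were 0%, 11.1% and 11.1%, against 8.03%, 13.6% and 16.4% of all genes. The median change was 0.30 in L-Myc, 0.16 in C-Myc and 0.13 in N-Myc cells. Srsf2, also known as SC35, had 12.77 and 12.80 in L-Myc cells, 12.64 and 12.69 in C-Myc cells and 12.59 and 12.68 in N-Myc cells, against 12.11, 12.12 and 12.07 in preSC. The groups did not overlap. Srsf2 rose by 0.69 in L-Myc (SE 0.11, adjusted p = 0.0111), 0.57 in C-Myc (adjusted p = 0.0132) and 0.54 in N-Myc cells (adjusted p = 0.0136), and its second probe set by 0.88, 0.72 and 0.68. Srsf4 had 11.66 and 11.39 in L-Myc cells, 11.07 and 11.33 in C-Myc cells and 11.14 and 11.04 in N-Myc cells, against 12.11, 11.97 and 11.74 in preSC. All transduced arrays lay below the preSC arrays. Srsf4 fell by 0.74 in C-Myc (SE 0.17, adjusted p = 0.0197) and by 0.85 in N-Myc cells (adjusted p = 0.0116), and its change in L-Myc cells was -0.41 (adjusted p = 0.144).

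Srsf1, the best-known SR protein and an oncoprotein in human breast epithelial cells, had changes of -0.11, -0.15 and -0.21 on its brightest probe set, none past the test. The reading depends on the probe set: its 7 probe sets ran from -0.11 to 1.71 in L-Myc, from -0.15 to 1.74 in C-Myc and from -0.21 to 1.57 in N-Myc cells. Their mean was higher by 0.51 in L-Myc (adjusted p = 0.0286), 0.48 in C-Myc (adjusted p = 0.0242) and 0.37 in N-Myc cells (adjusted p = 0.0469). Srsf3 had changes of 0.36, 0.31 and 0.23, with every transduced array above the preSC arrays, but did not pass the test.

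Of 19 hnRNP genes, 2 rose and 0 fell in L-Myc, 2 rose and 1 fell in C-Myc, and 3 rose and 2 fell in N-Myc cells. The shares that rose were 10.5%, 10.5% and 15.8%, against 5.44%, 9.91% and 12.5% of all genes, so those in C-Myc and N-Myc cells lie near these. The shares that fell were 0%, 5.26% and 10.5%, against 8.03%, 13.6% and 16.4% of all genes. The median change was 0.089 in L-Myc, 0.062 in C-Myc and 0.10 in N-Myc cells. Hnrnpa1, known from human cells for steering the choice between pyruvate kinase M exons together with Hnrnpa2b1 and Ptbp1, had 11.40 and 11.55 in L-Myc cells, 11.73 and 11.44 in C-Myc cells and 11.62 and 11.65 in N-Myc cells, against 10.83, 10.82 and 10.76 in preSC. The groups did not overlap. Hnrnpa1 rose by 0.67 in L-Myc (SE 0.13, adjusted p = 0.0203), 0.78 in C-Myc (adjusted p = 0.00909) and 0.83 in N-Myc cells (adjusted p = 0.00675), and the L-Myc call was lost whichever array was left out. Its second probe set gave -0.052, 0.10 and 0.41, none past the test, with 11.23 and 10.49 in L-Myc and 11.57 and 10.46 in C-Myc cells, against 10.89, 10.93 and 10.92 in preSC. There the second L-Myc and second C-Myc arrays lay below the preSC arrays and the first ones above them. Near-identical copies of Hnrnpa1 are common in the genome, and which transcripts each probe set binds was not analysed here.

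Hnrnpl, which represses variable exons, had 11.53 and 11.44 in L-Myc cells, 11.45 and 11.41 in C-Myc cells and 11.69 and 11.40 in N-Myc cells, against 10.99, 10.95 and 10.88 in preSC. The preSC arrays lay below all others. Hnrnpl rose by 0.54 in L-Myc (adjusted p = 0.0372), 0.49 in C-Myc (adjusted p = 0.035) and 0.60 in N-Myc cells (adjusted p = 0.0167), calls that were lost in L-Myc and C-Myc cells whichever array was left out. Its second probe set was below the filter. Hnrnpul2, a nuclear protein that in human cells takes part in DNA end resection, had 10.44 and 9.73 in L-Myc cells, 8.87 and 9.72 in C-Myc cells and 9.32 and 9.03 in N-Myc cells, against 11.03, 11.10 and 10.88 in preSC. All transduced arrays lay below the preSC arrays, and the first L-Myc array was the closest to them. Hnrnpul2 fell by 1.71 in C-Myc (SE 0.30, adjusted p = 0.00925) and by 1.83 in N-Myc cells (adjusted p = 0.00681), and its change in L-Myc cells was -0.92 (adjusted p = 0.0824). Its second probe set fell by 1.14 in C-Myc and by 1.30 in N-Myc cells. Hnrnph3 fell by 0.64 in N-Myc cells (adjusted p = 0.0311). Hnrnph2, named after its values were seen to complete the count of hnRNP genes, rose there by 0.48 (adjusted p = 0.0398). The Hnrnph3 call was lost without the first or second preSC array or either N-Myc array, and the Hnrnph2 call whichever array was left out.

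Hnrnpab, Hnrnpa2b1, Hnrnph1 and Hnrnpu did not pass the test on their brightest probe sets. Hnrnpab had 13.58 and 13.57 in L-Myc cells, 13.51 and 13.55 in C-Myc cells and 13.56 and 13.48 in N-Myc cells, against 13.61, 13.58 and 13.61 in preSC. The changes of Hnrnpab were -0.029, -0.072 and -0.084, those of Hnrnpa2b1 0.057, -0.052 and 0.061, those of Hnrnph1 0.16, -0.068 and -0.14, and those of Hnrnpu 0.089, 0.14 and 0.26, for L-Myc, C-Myc and N-Myc cells. Other probe sets of Hnrnpab and Hnrnpu gave other values: the 7 of Hnrnpab ran from -1.30 to 0.96 in L-Myc, from -1.09 to 0.74 in C-Myc and from -0.70 to 0.76 in N-Myc cells, and the 5 of Hnrnpu from -0.098 to 1.42, from -0.24 to 1.60 and from -0.37 to 1.85.

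The second probe set was tested in 41 of the splicing genes. Of the calls on the brightest probe set, 4 of 7 in L-Myc, 10 of 13 in C-Myc and 10 of 14 in N-Myc cells also passed on the second in the same direction, and 0 passed in opposite directions. The second probe sets gave 11 calls in L-Myc cells, 7 of them in genes whose brightest probe set was not called, and 18 calls with 8 such genes in both C-Myc and N-Myc cells. Both directions together, these are 26.8%, 43.9% and 43.9% of the 41 genes for L-Myc, C-Myc and N-Myc cells. All 6384 genes with a second probe set tested gave 28.4%, 35.2% and 40.3%, so the joint L-Myc and N-Myc shares lie near theirs. Split by direction, 10 of the 41 rose and 1 fell with L-Myc, beside 1171 and 644 of the 6384. With C-Myc 14 rose and 4 fell, beside 1400 and 848. The N-Myc counts were also 14 and 4, beside 1544 and 1028. Each time the splicing genes had the larger share of rises and the smaller share of falls. The genes Srsf10, Sf3a2 and Sf3a3 differed most between the brightest and second-brightest probe set. The first 2 of them were picked for mention after their values were seen. The second probe set of Sf3a2, a subunit of the SF3a complex, had 9.01 and 8.65 in L-Myc cells, 9.48 and 8.68 in C-Myc cells and 9.56 and 8.94 in N-Myc cells, against 7.06, 6.72 and 6.75 in preSC, a rise of 1.99, 2.24 and 2.41. Its brightest probe set gave -0.24, -0.088 and 0.14 in the same cells. The second probe set of Sf3a3 had 11.10 and 11.32 in L-Myc cells, 10.95 and 11.13 in C-Myc cells and 10.74 and 10.86 in N-Myc cells, against 9.50, 9.52 and 9.42 in preSC, and rose by 1.73, 1.56 and 1.32. That of Srsf10, an SR-like splicing repressor, rose by 1.64, 1.85 and 1.62, against 0.35, 0.47 and 0.26 on its brightest probe set. Where on a transcript each probe set lies was not analysed here, so a change in total RNA and a change in one isoform or transcript end cannot be told apart. The 5′ minus 3′ difference between transduced and preSC arrays, given above, cannot be told apart from these either.

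**Figure D4:**
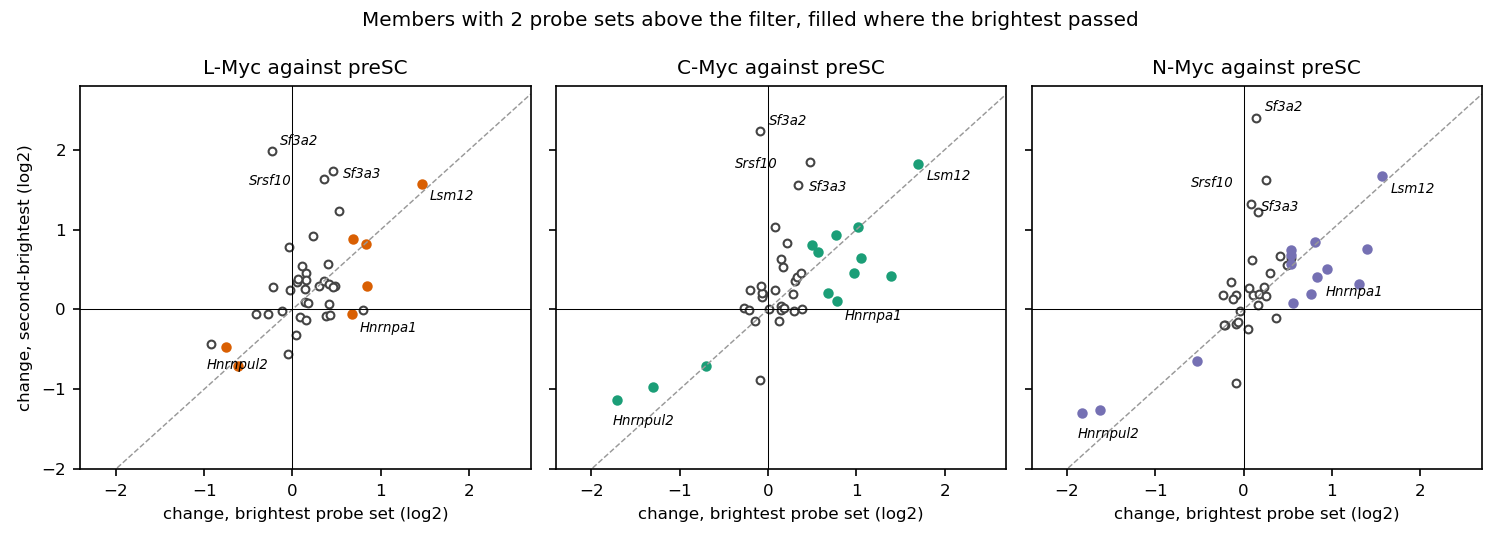
Change against preSC (log2) on the brightest probe set (horizontal) and on the second-brightest (vertical) of the 41 splicing genes with both above the filter, for L-Myc, C-Myc and N-Myc cells; filled points passed the test on the brightest, and the dashed line marks equal changes. Lsm12 lies near that line, Hnrnpa1 near 0 on the vertical axis in L-Myc cells, and Sf3a2, Sf3a3 and Srsf10 far above it.

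Between the transduced groups no splicing gene passed the test. The RNA label given above also sets L-Myc cells apart from C-Myc and N-Myc cells. Against N-Myc cells, C-Myc cells had 0 of 63 genes called, against 0% of all genes tested, and 0 splicing genes had an unadjusted p under 0.05 (4.17% of all genes). Against C-Myc cells, L-Myc cells had 0 called, against 0% of all genes, and 2 splicing genes (3.17%) had an unadjusted p under 0.05 (4.64% of all genes). Against N-Myc cells, L-Myc cells had 0 called, against 0% of all genes, and 7 splicing genes (11.1%) had an unadjusted p under 0.05 (18.7% of all genes). The counts behind these shares are small, and the L-Myc against C-Myc share lies near that of all genes. Whether splicing genes differ from all genes here was not tested. Among the larger differences were those of Hnrnpul2, with L-Myc minus C-Myc 0.79 (SE 0.32, adjusted p = 0.83) and L-Myc minus N-Myc 0.91 (adjusted p = 0.208). Sf3b2 had L-Myc minus C-Myc 0.55 and L-Myc minus N-Myc 0.87 (SE 0.21, adjusted p = 0.165), and Lsm14b had L-Myc minus N-Myc 0.62 (adjusted p = 0.165). For Smn1 the difference was -0.28 for L-Myc minus C-Myc (SE 0.28), -0.64 for L-Myc minus N-Myc and -0.36 for C-Myc minus N-Myc. For Snrpc and Snrpa1, C-Myc minus N-Myc was -0.10 and -0.17 (SE 0.18 and 0.18), so their calls in N-Myc cells alone are no sign of a difference from C-Myc cells. Without the second L-Myc and second C-Myc arrays, Hnrnpul2 was higher in L-Myc than in C-Myc cells by 1.57 (adjusted p = 0.0274) and than in N-Myc cells by 1.27 (adjusted p = 0.0214), and Smn1 was lower in L-Myc than in N-Myc cells by a difference of -0.74 (adjusted p = 0.0445). In that fit 3.18% of all genes were higher and 2.41% lower in L-Myc than in C-Myc cells, and 5.19% higher and 3.89% lower in L-Myc than in N-Myc cells, against 1 of 63 splicing genes (1.59%) at most in each. It has a lone L-Myc and a lone C-Myc array, which are assumed to vary like the other groups.

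Other genes of the splicing pathway, in lists made with earlier results of these data known, were read the same way. Of 13 tested genes of snRNP assembly and Sm protein methylation outside the Gemin names, 2 rose in L-Myc, 4 in C-Myc and 6 in N-Myc cells and none fell, with median changes of 0.26 in L-Myc, 0.41 in C-Myc and 0.39 in N-Myc cells. The shares that rose were 15.4%, 30.8% and 46.2%, against 5.44%, 9.91% and 12.5% of all genes. Prmt5, the methyltransferase of Sm proteins, had 9.36 and 9.40 in L-Myc cells, 10.29 and 9.35 in C-Myc cells and 10.29 and 10.11 in N-Myc cells, against 8.58, 8.22 and 8.43 in preSC. All transduced arrays lay above the preSC arrays. Prmt5 rose by 1.41 in C-Myc (adjusted p = 0.0115) and 1.79 in N-Myc cells (adjusted p = 0.00522), and had a change of 0.97 in L-Myc cells (adjusted p = 0.0517). Wdr77, its partner protein, had 9.56 and 9.98 in L-Myc cells, 10.73 and 10.08 in C-Myc cells and 10.68 and 10.69 in N-Myc cells, against 8.76, 8.88 and 8.99 in preSC. Here too the groups did not overlap. Wdr77 rose by 0.89 in L-Myc (adjusted p = 0.0385), 1.53 in C-Myc (adjusted p = 0.00531) and 1.81 in N-Myc cells (adjusted p = 0.00342), with 0.007, 0.23 and 0.10 on its second probe set.

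Of 65 other spliceosome genes tested, 2 rose and 1 fell in L-Myc, 7 rose and 4 fell in C-Myc, and 11 rose and 5 fell in N-Myc cells. The shares that rose, 3.08%, 10.8% and 16.9%, and fell, 1.54%, 6.15% and 7.69%, stand against 5.44%, 9.91% and 12.5% and against 8.03%, 13.6% and 16.4% of all genes. This list had median changes of 0.15 in L-Myc, 0.21 in C-Myc and 0.20 in N-Myc cells. U2af1, which reads the end of the intron, had 0.07, 0.16 and 0.27, none past the test. Of 51 splicing regulators outside the families, 7 rose and 6 fell in L-Myc, 7 rose and 9 fell in C-Myc, and 6 rose and 10 fell in N-Myc cells. The shares that rose were 13.7%, 13.7% and 11.8% and that fell 11.8%, 17.6% and 19.6%, so those in N-Myc cells lie near the shares of all genes. These regulators had median changes of -0.011 in L-Myc, -0.17 in C-Myc and -0.15 in N-Myc cells. Ptbp1, which represses neuronal exons, rose by 0.88 in L-Myc (adjusted p = 0.0285), 1.00 in C-Myc (adjusted p = 0.0131) and 1.23 in N-Myc cells (adjusted p = 0.00651), with 0.17, 0.14 and 0.31 on its second probe set. Ptbp2, its relative in neurons, rose by 0.75, 0.71 and 0.72 in the same cells. Srrm4, which promotes neural microexons, fell by 0.51 in C-Myc (adjusted p = 0.0361) and by 0.82 in N-Myc cells (adjusted p = 0.00775), with -0.35 in L-Myc cells. Mbnl3, of the muscleblind family, had 8.05 and 8.22 in L-Myc cells, 7.48 and 7.89 in C-Myc cells and 7.13 and 7.02 in N-Myc cells, against 9.14, 9.19 and 9.37 in preSC, and fell, with changes of -1.10, -1.55 and -2.16. Srrm2, a large scaffold of nuclear speckles, fell by 1.11 in L-Myc, by 1.60 in C-Myc and by 1.64 in N-Myc cells. Esrp1, which sets epithelial splice forms, had 8.06 and 10.37 in L-Myc cells, 9.92 and 10.22 in C-Myc cells and 10.67 and 10.65 in N-Myc cells, against 11.27, 11.36 and 11.75 in preSC, with the first L-Myc array far below the rest. It fell by 2.25 in L-Myc cells (adjusted p = 0.0433) and had -1.39 in C-Myc and -0.80 in N-Myc cells.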

How the data were processed

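RNA of 9 samples was measured on Affymetrix mouse arrays. The authors deposited log2 values, which per the submitters' processing notes came from RMA (affy package, R 3.0.1); no source used here gives a version of affy. RMA subtracts background, sets all arrays to a common distribution and summarises each probe set, so a shift shared by all RNAs would not be seen. Array medians lay between 6.02 and 6.07, and no further scaling was applied. Scanner intensities were not used here, and the number of arrays limits the precision.

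Of 45101 probe sets, 34945 carry 1 gene symbol and give 18193 genes, each represented by its brightest probe set over the 9 arrays. Genes above the 40th percentile of an array (5.28 to 5.34) in at least 2 arrays were tested, which left 12976. Group means were fitted to all 9 arrays by lmFit and eBayes of limma 3.58.1 in R 4.3.3, which leaves 5 residual degrees of freedom, two-sided; p-values were adjusted by Benjamini-Hochberg over these genes, with 0.05 as the threshold. The fit was tested on simulated data. A change is one group's mean log2 value minus the other's, with its standard error (SE).

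The splicing genes and all lists were chosen with earlier results of these data known. Named in each comparison were fixed genes (Srsf1, Srsf2, Srsf3, Hnrnpa1, Hnrnpa2b1, Hnrnpab, Hnrnph1, Hnrnpu, Snrpa1, Snrpb, Snrpd3, Snrpn, Sf3a3, Sf3b1, Sf3b3, Lsm2, Lsm7, Lsm11, Smn1, Gemin2, Gemin5, and Ptbp1, Ptbp2, Prmt5, Srrm4 and U2af1), up to 4 genes per family with the largest change past the threshold, and up to 3 other splicing genes. A gene met outside these rules was named after its values were seen. Alternatives were another probe set per gene, the mean of probe sets, quantile normalization or centring of the genes tested, no filter, the arrays of the 2 groups alone, the replicate number as a block, and leaving out arrays.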

Additional observations from a re-analysis of the deposited data

How the results depend on the processing

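Counts of splicing genes against preSC moved as follows. With 9 rising in L-Myc cells, the mean of all probe sets gave 15, centred arrays 18, the fit without the second L-Myc and second C-Myc arrays 5 and the replicate block 4. With 3 falling in L-Myc cells, the second-brightest probe sets gave 1 of the 41 splicing genes tested there (2 of the same 41 fell on the brightest), centred arrays 1, and the fit without these 2 arrays and the replicate block 0 each. The replicate block gave 10 rising in C-Myc cells in place of 16 and 9 rising in N-Myc cells in place of 20, and the second-brightest probe sets gave 4 falling in N-Myc cells, where 7 of 63 but 3 of those 41 fell on the brightest. Centring also turned the split over all genes, to 1144 rising and 702 falling in L-Myc cells in place of 706 and 1042. Leaving out single arrays gave 3 to 6 rising and 0 to 1 falling in L-Myc, 7 to 16 and 4 to 6 in C-Myc, and 4 to 13 and 2 to 7 in N-Myc cells, where fewer samples were fitted, and 0 in every comparison between transduced groups. Without the second L-Myc and second C-Myc arrays, L-Myc against C-Myc had 1 splicing gene higher (413 of all genes), and L-Myc against N-Myc had 1 higher and 1 lower (673 and 505 of all genes), in place of 0. For the other settings the cause was not tested. Directions reversed for Srsf1 with the mean of its probe sets (0.51 in L-Myc, 0.48 in C-Myc and 0.37 in N-Myc cells), for Hnrnpa1 on its second probe set in L-Myc cells (-0.052) and for Sf3b2 with the mean of its probe sets in L-Myc cells (0.19). Of the other values for named genes, single arrays aside, 695 kept direction and side of the threshold, 60 lost the call, 23 gained it and 39 changed sign without a call. Same-numbered arrays did not deviate together throughout: the correlations with preSC were 0.652 and -0.678 for L-Myc, 0.401 and -0.367 for C-Myc and 0.131 and -0.014 for N-Myc, while between transduced groups, whose 2 deviations mirror each other, they were 0.438 for L-Myc and C-Myc, 0.141 for C-Myc and N-Myc and 0.144 for L-Myc and N-Myc. The number was therefore not taken as a pairing of preSC with transduced arrays. Background correction could not be redone without scanner values.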
